A study of Homo sapiens with 12 samples.

Results

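The genes described are the p53 target genes: MDM2, MDM4, PPM1D and CCNG1, which act back on p53, and genes that p53 is known to activate directly, leaving out CDKN1A and the BCL2 family. The rule that picks them is a list of names and uses no measured value, although the list was drawn up with earlier results of these data known. All 33 of their symbols were among the 56634 gene symbols of the deposited counts. The cells were HCT116, a human colorectal carcinoma line with intact p53, taken from the ATCC. In the TNF plus Senexin B group, also called both agents, cells were given 1 µM Senexin B and, 1 hour later, 10 ng/mL TNF-alpha (TNF) for 2 hours in its presence. In the TNF group, 0.1% DMSO came 1 hour before the same dose of TNF, which again was left for 2 hours. The Senexin B group had the inhibitor alone at 1 µM for 3 hours, and the control group had 0.1% DMSO for the same 3 hours. The labels give no DMSO content for either group with Senexin B. Each group had 3 biological replicates, which gave 12 libraries. All 4 groups are thus the same cells at 1 time and 1 dose, and the labels name no DNA-damaging agent in any of them. Senexin B inhibits CDK8 and CDK19, the kinases of the Mediator complex, and the series title puts the question as what that inhibition does with and without TNF.

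The transcription factor p53 is held at a low level by MDM2, a ubiquitin ligase that marks it for destruction, and by the related MDM4, which masks its activation domain. DNA damage and other stresses release p53, which then binds paired half-sites in DNA and activates genes for growth arrest, DNA repair, metabolism and cell death, MDM2 itself among them. Mediator carries signals from such factors to RNA polymerase II, and TNF activates NF-kB, a different factor that shares some of these genes with p53.

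The start sites of these genes are shown first, because the deposited values are a readout of transcripts that begin there. Promoter windows of 300 bases, from 250 before a gene's start to 50 after it, were taken from RefSeq (GRCh38.p14) and found for 28 of the 33 genes, in 37 windows. A perfect p53 half-site, searched on both strands with no mismatch allowed, was in 6 of these windows (16.2%) and in 6.63% of all 35116 windows of the table. The stretches below are those 6, in lower case and read 5′ to 3′ on the strand of the gene, with the half-site letters in capitals.
PLK2, chr5:58460199-58460228, minus strand: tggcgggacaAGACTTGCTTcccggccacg
SESN1, chr6:109009018-109009047, minus strand: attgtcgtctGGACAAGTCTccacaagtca
DDB2, chr11:47214969-47215009, plus strand: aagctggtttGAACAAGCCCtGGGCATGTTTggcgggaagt
ISCU, chr12:108562388-108562417, plus strand: ccagcacccaGGACAAGCCCtccagcgact
AEN, chr15:88621296-88621325, plus strand: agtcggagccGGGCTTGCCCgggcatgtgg
FDXR, chr17:74872986-74873015, minus strand: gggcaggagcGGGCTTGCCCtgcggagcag
The DDB2 stretch held 2 half-sites, 1 base apart, and the AEN and FDXR half-sites were the same 10 letters. Of these 6 genes PLK2 was called in the main edgeR tests given further on, and the other 5 were called in none of those.

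Windows of 2 genes that the results turn on are given whole. The PLK2 window, chr5:58460037-58460336 on the minus strand, has its half-site, which begins 132 bases before the start, in capitals.
PLK2: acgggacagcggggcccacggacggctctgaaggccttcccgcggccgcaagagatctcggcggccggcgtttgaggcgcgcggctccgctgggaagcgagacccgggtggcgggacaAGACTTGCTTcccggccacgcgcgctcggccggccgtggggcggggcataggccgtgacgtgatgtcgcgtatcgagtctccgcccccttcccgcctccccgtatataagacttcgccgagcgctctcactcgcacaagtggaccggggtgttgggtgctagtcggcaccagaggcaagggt
MDM2 has a second start inside the gene, known as the promoter through which p53 acts. Its window, chr12:68808767-68809066 on the plus strand, held no perfect half-site. That does not show that p53 sites are absent from it, since the search allowed no mismatch. The capitals in this window mark an AP-1 motif, TGANTCA on either strand.
MDM2: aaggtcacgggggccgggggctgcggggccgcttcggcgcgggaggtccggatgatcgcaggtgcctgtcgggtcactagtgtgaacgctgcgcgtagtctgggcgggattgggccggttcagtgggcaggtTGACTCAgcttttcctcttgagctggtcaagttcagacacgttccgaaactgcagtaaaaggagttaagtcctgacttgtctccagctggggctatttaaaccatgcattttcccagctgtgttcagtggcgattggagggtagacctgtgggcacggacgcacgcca
AP-1 motifs were in 4 of the 37 windows, those of SFN and PERP and both overlapping windows at this MDM2 start, and in 7.71% of all windows of the table. The cyclic AMP element TGACGTCA was in the windows of EPHA2, ISCU and PPM1D, against 1.85% of all windows. The kappaB motif, the NF-kB binding sequence, was in 1 member window, that of ISCU, and in 5.91% of all windows. It was in none of the windows of PLK2, BTG2, PLK3, DRAM1, NINJ1 and EPHA2, all of which were called higher with TNF. GADD45A, also called higher with TNF, had no window. At a share of 5.91% over all windows, no match in so few windows sets these genes apart in no way. A match in these letters is not a measured binding site, and the lack of a match does not show that a site is absent.

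Library totals were from 5835226 counts (TNF replicate 1) to 9281176 counts (Senexin B replicate 3). The exposure to TNF was visible in 7 NF-kB target genes, which summed to 988 to 999 counts per 1000000 counts (CPM) with TNF plus Senexin B and 1181 to 1267 CPM with TNF, against 114 to 118 CPM with Senexin B and 121 to 124 CPM in controls. The 6 epithelial markers were high in every library, with summed levels of 4626 to 4674 CPM with TNF plus Senexin B, 3989 to 4431 CPM with TNF, 4703 to 4799 CPM with Senexin B and 4283 to 4609 CPM in controls; the part of these differences in the results was not tested. Blood cell markers summed to at most 0.539 CPM and endothelial markers to at most 1.59 CPM, and fibroblast markers to 7.46 to 11.2 CPM, with DCN and LUM at 0 throughout. TNF replicate 1 stood apart in how its deviation from the other replicates of its group followed GC content, with a Spearman's rho over genes of -0.53, against -0.17 (control replicate 1) to 0.37 (TNF replicate 2) in the others. Values without it are given where they end a call or bring one about.

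Levels are comparable between genes only per length, so CPM were divided by the kilobases of exon of each gene in GENCODE 29. In control cells the highest of the 33 per length was SFN (14-3-3 sigma, which holds cells before mitosis) at 134 CPM per kb. EPHA2, a receptor tyrosine kinase, followed at 80.2 CPM per kb, and CCNG1 (cyclin G1), PERP (a desmosomal membrane protein) and TRIAP1 (a mitochondrial survival protein) were close together at 46.6, 46.0 and 41.7 CPM per kb. The control libraries of CCNG1 and PERP overlapped, at 44.8 to 49.8 and 44.8 to 47.3 CPM per kb, so the order of these neighbours is not resolved. MDM2 stood 13th at 15.6 CPM per kb. The lowest were TP53I3 (2.64), TP53INP1 (2.06), CCNG2 (1.42) and, last, SPATA18 (0.0389 CPM per kb). SPATA18, which takes part in the removal of damaged mitochondria, had 29 counts over all 12 libraries and was below the filter on low counts. Its counts were 2, 2 and 0 with TNF plus Senexin B, 4, 2 and 6 with TNF, 6, 0 and 2 with Senexin B and 1, 0 and 4 in controls. The other 32 genes passed the filter and entered the tests with 13084 genes in all.

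Short exposure to TNF moved a minority of the p53 target genes. Against control, 7 of the 32 tested genes rose (BTG2, GADD45A, PLK2, PLK3, DRAM1, EPHA2 and NINJ1) and 1 fell (GDF15), with 24 not called. A call is a Benjamini-Hochberg adjusted p under 0.05 over all genes tested, from edgeR's quasi-likelihood test. Of all 13084 genes, 10.0% were called in this comparison, 5.81% higher and 4.20% lower, or 11.9% of those at least as abundant as the least abundant tested target gene. With Senexin B already present, the same 7 genes rose and 0 fell in both agents against Senexin B, where 5.95% of all genes were called, 4.27% higher and 1.68% lower, or 6.93% of those at that abundance. Before adjustment, 4 target genes were lower there at p under 0.05. In either direction 37.5% of the 32 passed, against 14.9% of all genes. DESeq2 called 0 lower and 6 higher there. The median log2 fold change over the 32 tested target genes was near that of all genes, 0.03 for TNF against control and -0.03 for both agents against Senexin B, beside -0.01 and -0.00 over all genes. RNA came from whole cultures, so a change in RNA per cell and a change in the number of cells that express a gene cannot be told apart. The labels call the replicates biological, without saying that they came from separate days. The p-values weigh each change against the spread between these replicates, which was small, with a common biological coefficient of variation of 3.62%. Variation between days or cultures that the replicates may not hold is not covered by them.

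**Figure D1:**
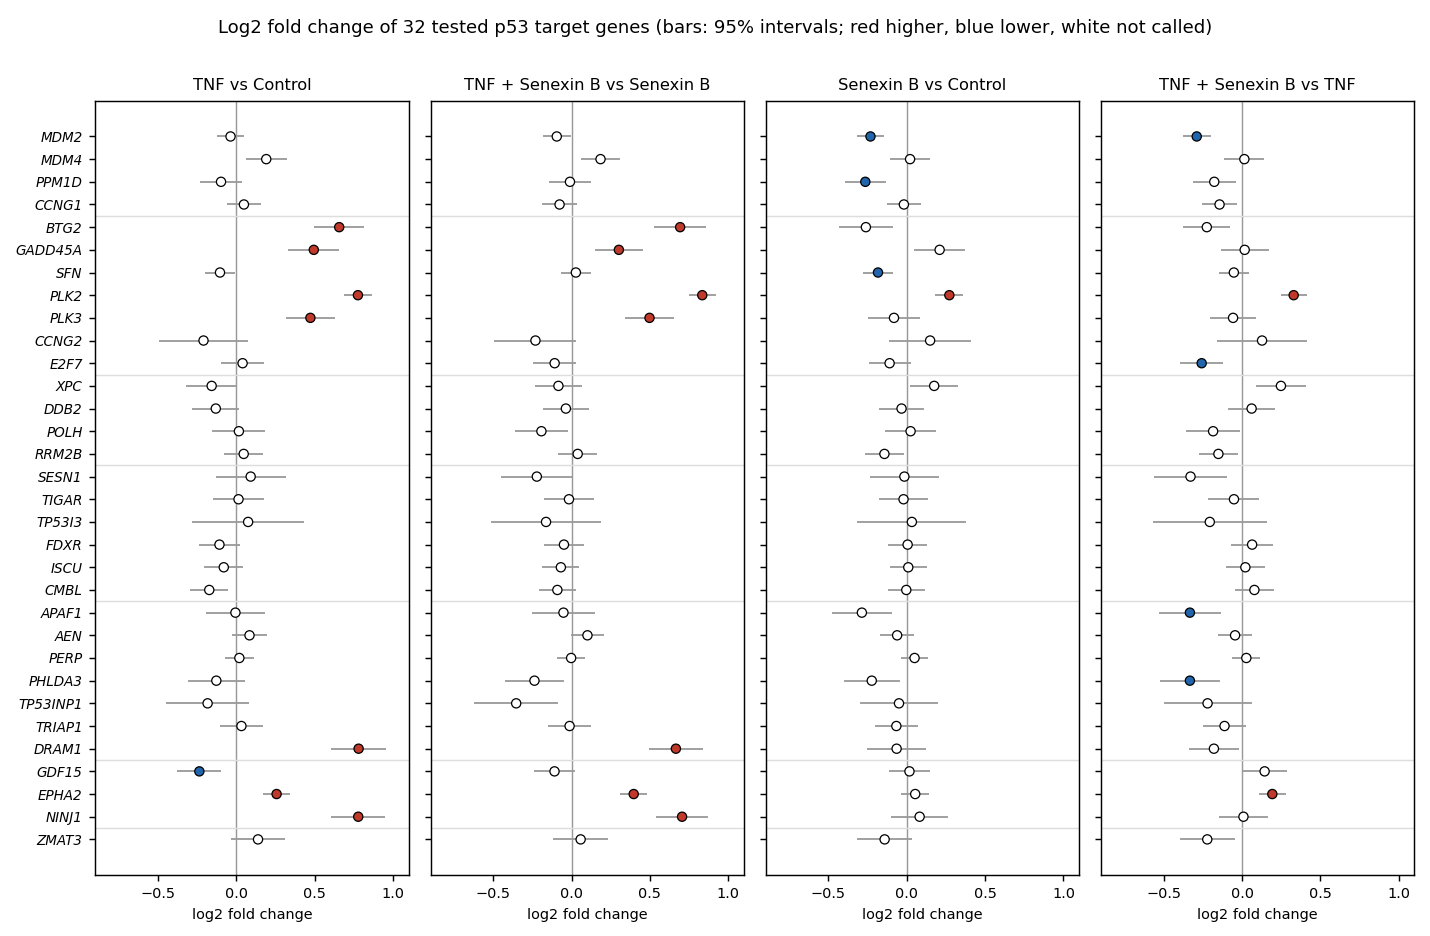
Log2 fold changes of the 32 tested p53 target genes in 4 comparisons, 1 row per gene, with 95% intervals; red points were called higher, blue points lower and white points not called. The 7 genes called higher with TNF stand to the right in both TNF comparisons, while most other points lie near 0.

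The growth arrest genes held 4 of the 7. PLK2 (chr5:58453982-58460260, GRCh38, GENCODE 29), a polo-like kinase that acts in G1 and at centrosomes, had 313, 322 and 336 CPM in the TNF plus Senexin B libraries and 263, 255 and 256 CPM in the TNF libraries. Against these, PLK2 had 179, 188 and 178 CPM in the Senexin B libraries and 147, 147 and 157 CPM in the control libraries. The 4 groups did not overlap, and PLK2 was highest with both agents, then with TNF, then with Senexin B, and lowest in controls. In TNF against control its log2 fold change was 0.78 ± 0.04 (standard error; edgeR adjusted p = 1.30e-21), a level 71.2% higher, and in both agents against Senexin B it was 0.83 ± 0.04 (edgeR adjusted p = 7.31e-24). It was also higher with the inhibitor, alone and under TNF: Senexin B against control gave 0.27 ± 0.05 (edgeR adjusted p = 3.34e-05) and both agents against TNF gave 0.33 ± 0.04 (edgeR adjusted p = 5.05e-08). Of the 6 TNF-raised genes with a window, PLK2 is also the one whose window, printed above, holds a perfect p53 half-site.

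BTG2 (chr1:203305491-203309602), an anti-proliferative cofactor of mRNA deadenylation, had 37.6, 41.2 and 38.6 CPM in the TNF plus Senexin B libraries and 47.7, 44.8 and 45.2 CPM in the TNF libraries. Against these, BTG2 had 23.9, 24.2 and 24.5 CPM in the Senexin B libraries and 26.4, 31.3 and 29.1 CPM in the control libraries. Every library with TNF was above every library without it. Its log2 fold change was 0.66 ± 0.08 in TNF against control (edgeR adjusted p = 2.41e-09) and 0.69 ± 0.08 in both agents against Senexin B (edgeR adjusted p = 1.11e-09). The Senexin B libraries of BTG2 lay below those without the inhibitor in both pairs, at -0.26 ± 0.09 against control and -0.23 ± 0.07 under TNF, and neither was called (edgeR adjusted p = 0.0857 and 0.0631). With GC-corrected offsets both were called, at -0.27 (adjusted p = 0.0415, or 0.0353 with a replicate block) and -0.24 (adjusted p = 0.0288, or 0.0243 with the block), and the first was also called without control replicate 1 and TNF replicate 1 (-0.32, adjusted p = 0.0279).

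GADD45A (chr1:67685061-67688338), a small stress protein that acts in arrest before mitosis and in repair, had 43.6, 48.2 and 43.6 CPM in the TNF plus Senexin B libraries and 40.6, 46.7 and 45.7 CPM in the TNF libraries. Against these, GADD45A had 40.0, 37.2 and 32.96 CPM in the Senexin B libraries and 33.3, 31.0 and 30.9 CPM in the control libraries. The TNF libraries lay above the control libraries, and the libraries with both agents above those with Senexin B alone, while the TNF and combined libraries overlapped. The log2 fold changes were 0.49 ± 0.08 (edgeR adjusted p = 6.19e-06) without and 0.30 ± 0.08 (edgeR adjusted p = 0.00619) with the inhibitor. The second of these was not called by DESeq2 (adjusted p = 0.0611), nor by edgeR without TNF plus Senexin B replicate 2 (adjusted p = 0.0919) or Senexin B replicate 3 (adjusted p = 0.143).

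PLK3 (chr1:44800225-44805990), the stress-responsive relative of PLK2, had 44.8, 46.0 and 40.9 CPM in the TNF plus Senexin B libraries and 42.3, 48.1 and 45.9 CPM in the TNF libraries. Against these, PLK3 had 30.6, 30.5 and 32.1 CPM in the Senexin B libraries and 35.2, 30.1 and 33.6 CPM in the control libraries. Libraries with TNF were again all above those without. Its log2 fold changes were 0.47 ± 0.08 in TNF against control (edgeR adjusted p = 7.71e-06) and 0.50 ± 0.08 in both agents against Senexin B (edgeR adjusted p = 1.93e-06). The kit does not mark strand, and 2.24% of the exon length of PLK3 overlaps TCTEX1D4 on the opposite strand, which had 9 counts in all libraries together.

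DRAM1 (chr12:101877351-102012130), a lysosomal membrane protein of p53-driven autophagy, was the 1 gene of the cell death and autophagy group that rose with TNF. It had 33.1, 32.9 and 38.0 CPM in the TNF plus Senexin B libraries and 38.8, 39.7 and 39.3 CPM in the TNF libraries. Against these, DRAM1 had 22.5, 20.8 and 22.3 CPM in the Senexin B libraries and 24.1, 20.9 and 23.8 CPM in the control libraries. The groups with and without TNF did not overlap, and the combined libraries were all below the TNF libraries. The log2 fold change was 0.78 ± 0.09 in TNF against control (edgeR adjusted p = 1.76e-10) and 0.67 ± 0.09 in both agents against Senexin B (edgeR adjusted p = 1.80e-08). both agents against TNF gave -0.18 ± 0.08, which was not called (edgeR adjusted p = 0.193).

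The 3 secreted and cell surface genes were all called with TNF. NINJ1 (chr9:93121489-93134288), the membrane protein that ruptures the plasma membrane late in lytic death, had 42.9, 42.7 and 46.1 CPM in the TNF plus Senexin B libraries and 38.8, 45.3 and 45.8 CPM in the TNF libraries. Against these, NINJ1 had 28.8, 28.1 and 24.1 CPM in the Senexin B libraries and 24.7, 24.6 and 27.0 CPM in the control libraries. Its libraries with TNF lay well above the others, at 0.78 ± 0.09 on the log2 scale in TNF against control (edgeR adjusted p = 1.27e-10) and 0.71 ± 0.08 in both agents against Senexin B (edgeR adjusted p = 7.01e-10). EPHA2 (chr1:16124337-16156087), the ephrin-A receptor, had 468, 458 and 441 CPM in the TNF plus Senexin B libraries and 359, 427 and 409 CPM in the TNF libraries. Against these, EPHA2 had 357, 342 and 341 CPM in the Senexin B libraries and 329, 327 and 345 CPM in the control libraries. The combined libraries were the highest and did not overlap those of any other group, and TNF replicate 1 was the lowest of the TNF libraries. EPHA2 rose by 0.26 ± 0.04 in TNF against control (edgeR adjusted p = 2.02e-05), by 0.40 ± 0.04 in both agents against Senexin B (edgeR adjusted p = 3.91e-10) and by 0.19 ± 0.04 in both agents against TNF (edgeR adjusted p = 0.00281), all as log2 fold changes. Without TNF replicate 1 the last of these was 0.13, still called (edgeR adjusted p = 0.0414), and with offsets corrected for GC content it was 0.12 (edgeR adjusted p = 0.00825).

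GDF15 (chr19:18374731-18389176), a secreted stress cytokine and a common readout of p53 activity, had 73.3, 63.1 and 63.4 CPM in the TNF plus Senexin B libraries and 58.4, 63.0 and 58.9 CPM in the TNF libraries. Against these, GDF15 had 79.4, 71.8 and 64.5 CPM in the Senexin B libraries and 75.7, 70.4 and 67.3 CPM in the control libraries. The TNF libraries were below every control library, while the combined and Senexin B libraries overlapped. In TNF against control GDF15 fell by 0.24 on the log2 scale (standard error 0.07; edgeR adjusted p = 0.0200). That call was lost in 7 of 14 alternatives, with DESeq2 (adjusted p = 0.0694), with GC-corrected offsets (-0.11, adjusted p = 0.387; -0.10, adjusted p = 0.331 with a replicate block) and without TNF replicate 1 (adjusted p = 0.0749), TNF replicate 3 (adjusted p = 0.0831), control replicate 1 (adjusted p = 0.106) or both first replicates (-0.17, adjusted p = 0.188).

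**Figure D2:**
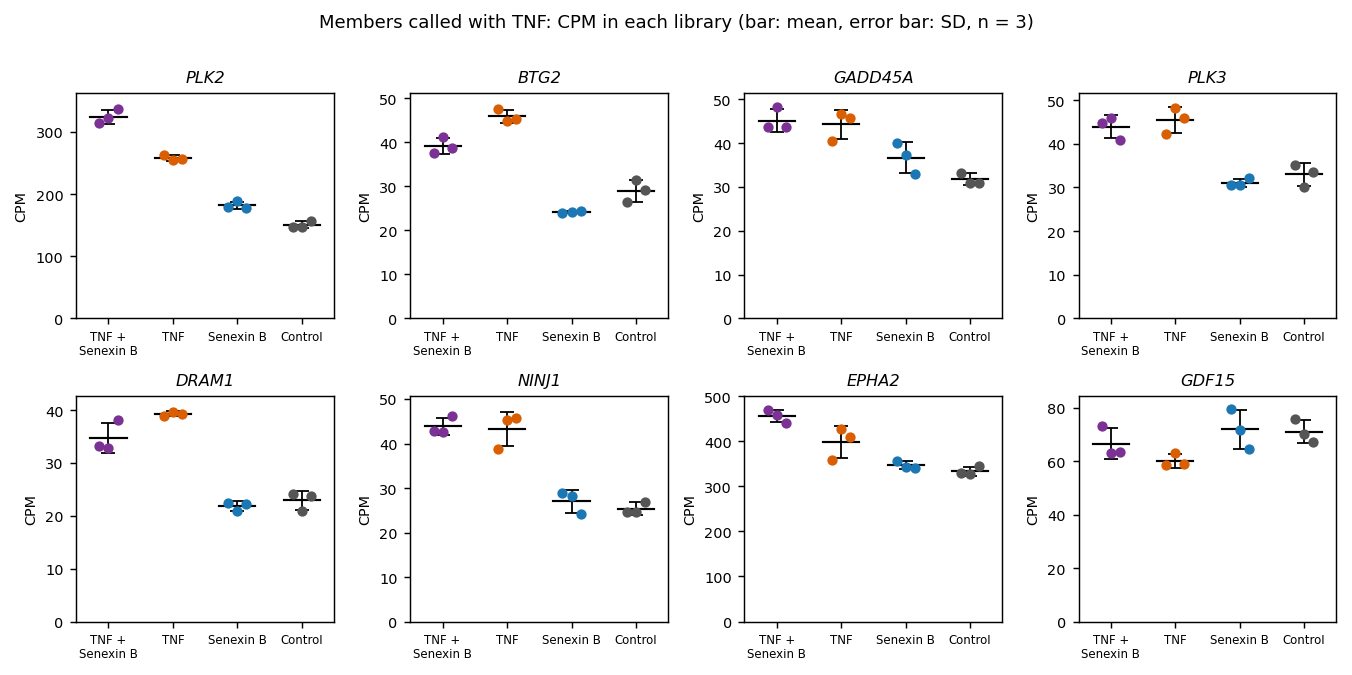
CPM in each library of the 8 p53 target genes called in TNF against control, from a y axis that starts at 0; points are libraries, bars are means and error bars the SD of 3 replicates. In 7 panels both groups with TNF lie above both groups without it, and PLK2 is at 324 ± 11.6 CPM with both agents, against 150.4 ± 5.53 CPM in controls.

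A few of the p53 target genes were also called with Senexin B, MDM2 lower and PLK2 higher with and without TNF. Against control, 1 of the 32 rose (PLK2) and 3 fell (MDM2, PPM1D and SFN), where 3.04% of all genes were called, 1.53% higher and 1.51% lower. In the presence of TNF, 2 rose (PLK2 and EPHA2) and 4 fell (MDM2, E2F7, APAF1 and PHLDA3), where 5.45% of all genes were called, 2.90% higher and 2.55% lower. Among genes at least as abundant as the least abundant tested target gene, the shares called were 3.77% and 6.73%. Before adjustment, more passed at p under 0.05 by edgeR. In Senexin B against control 3 were higher and 7 lower, 31.25% of the 32, against 14.2% of all genes. In both agents against TNF 4 were higher and 12 lower, 50% of the 32, against 18.9% of all genes. The median log2 fold change of the list was -0.02 in Senexin B against control and -0.05 in both agents against TNF, beside -0.00 and 0.00 over all genes. The counts rest in part on single libraries: without Senexin B replicate 3, or without control replicate 3, 2 target genes were called in Senexin B against control, and without TNF plus Senexin B replicate 3, 3 were called in both agents against TNF. In that comparison 2 rose and 2 fell with DESeq2, without TNF replicate 1 (alone or with control replicate 1) and without TNF plus Senexin B replicate 1 or 2, and 3 rose and 3 fell with no filter or without TNF replicate 3. The comparisons of TNF and of Senexin B with control share their control libraries.

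Of the regulators of p53, MDM2 (chr12:68808176-68850686) had 163, 166 and 168 CPM in the TNF plus Senexin B libraries and 212, 202 and 194 CPM in the TNF libraries. Against these, MDM2 had 172, 181 and 177 CPM in the Senexin B libraries and 204, 210.0 and 209 CPM in the control libraries. Every library with Senexin B was below every library without it, and the TNF and control libraries overlapped. MDM2 fell by 14.9% in Senexin B against control, a log2 fold change of -0.23 ± 0.04 (edgeR adjusted p = 0.000319), and fell by 18.2% in both agents against TNF (-0.29 ± 0.04, edgeR adjusted p = 5.31e-06). Both calls were kept in all 14 alternatives. TNF against control gave -0.04 ± 0.04 for MDM2, which was not called (edgeR adjusted p = 0.678). Without strand, reads from the antisense AC025423.4, which overlaps 5.91% of the MDM2 exon length, cannot be told apart from those of MDM2.

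PPM1D (chr17:60600183-60666280), the phosphatase WIP1 that switches off p53 and its activating kinases, had 53.6, 48.9 and 51.1 CPM in the TNF plus Senexin B libraries and 60.9, 53.5 and 60.0 CPM in the TNF libraries. Against these, PPM1D had 55.1, 48.7 and 50.8 CPM in the Senexin B libraries and 59.6, 62.8 and 63.3 CPM in the control libraries. The Senexin B libraries were below the control libraries, and the libraries with both agents overlapped the TNF libraries narrowly. PPM1D fell by 16.8% in Senexin B against control (-0.27 ± 0.07 on the log2 scale, edgeR adjusted p = 0.0102) and stood at -0.18 ± 0.07 in both agents against TNF, not called (edgeR adjusted p = 0.121). The first was not called without Senexin B replicate 2 (adjusted p = 0.105), Senexin B replicate 3 (adjusted p = 0.0653) or control replicate 3 (adjusted p = 0.0622).

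The other regulators were not called in any comparison of the main edgeR fit. MDM4, the inhibitory partner of MDM2, averaged 66.1 ± 2.15 CPM with both agents, 65.8 ± 4.37 CPM with TNF, 58.2 ± 3.33 CPM with Senexin B and 57.4 ± 3.19 CPM in controls (SD, n = 3 each). Its log2 fold change of 0.19 ± 0.07 in TNF against control stood just outside the threshold (edgeR adjusted p = 0.0501), and was called with a replicate block (adjusted p = 0.0385), without control replicate 1 (adjusted p = 0.0412) and without TNF replicate 2 (adjusted p = 0.0372). In both agents against Senexin B MDM4 was at 0.18 ± 0.06 (edgeR adjusted p = 0.0744), and was called with GC-corrected offsets (adjusted p = 0.0388, or 0.0308 with the block), with the compared groups alone (adjusted p = 0.0277), without Senexin B replicate 2 (adjusted p = 0.0460) and without control replicate 1 and TNF replicate 1 (adjusted p = 0.0259). CCNG1, which guides a phosphatase to MDM2, averaged 135 ± 4.67 CPM with both agents, 150.1 ± 16.3 CPM with TNF, 142 ± 4.62 CPM with Senexin B and 144 ± 8.55 CPM in controls.

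SFN (chr1:26863138-26864457), a growth arrest gene, had 165, 153 and 156 CPM in the TNF plus Senexin B libraries and 149.6, 173 and 167 CPM in the TNF libraries. Against these, SFN had 156, 158 and 152 CPM in the Senexin B libraries and 175, 175 and 178 CPM in the control libraries. The control libraries were above those of every other group, and the other 3 groups overlapped. SFN fell by 12.0% in Senexin B against control (-0.18 ± 0.05, edgeR adjusted p = 0.0155) and was at -0.05 ± 0.05 in both agents against TNF (edgeR adjusted p = 0.612). With GC-corrected offsets SFN was called in both agents against TNF too, at -0.14 (adjusted p = 0.0228, or 0.0136 with a replicate block). The call in Senexin B against control was lost without Senexin B replicate 1 (adjusted p = 0.0546), Senexin B replicate 3 (adjusted p = 0.114) or control replicate 3 (adjusted p = 0.0752). E2F7 (chr12:77021247-77065580), a repressor of cell cycle genes, had 51.3, 52.9 and 50.5 CPM in the TNF plus Senexin B libraries and 69.5, 60.7 and 56.4 CPM in the TNF libraries. Against these, E2F7 had 56.7, 53.6 and 56.4 CPM in the Senexin B libraries and 62.4, 62.2 and 55.8 CPM in the control libraries. Its combined libraries lay below the TNF libraries, of which replicate 1 was the highest. E2F7 fell by 16.4% in both agents against TNF (-0.26 ± 0.07, edgeR adjusted p = 0.0142), a call that was lost without TNF replicate 1 (adjusted p = 0.151), both first replicates of TNF and control (-0.18, adjusted p = 0.120), or TNF plus Senexin B replicate 1 (adjusted p = 0.0520) or replicate 3 (adjusted p = 0.0732). Against control, Senexin B gave -0.11 ± 0.07 for E2F7 (edgeR adjusted p = 0.473).

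Of the cell death group, 2 genes fell with Senexin B under TNF. APAF1 (chr12:98645141-98735433), the scaffold of the apoptosome, had 18.7, 19.9 and 20.2 CPM in the TNF plus Senexin B libraries and 25.8, 23.2 and 25.3 CPM in the TNF libraries. Against these, APAF1 had 22.1, 18.1 and 20.5 CPM in the Senexin B libraries and 27.6, 23.7 and 23.3 CPM in the control libraries. The combined libraries were below the TNF libraries, and the Senexin B libraries were below the control libraries as well. APAF1 fell by 20.6% in both agents against TNF (-0.33 ± 0.10, edgeR adjusted p = 0.0319) and stood at -0.29 ± 0.10 in Senexin B against control, not called (edgeR adjusted p = 0.0892). PHLDA3 (chr1:201464383-201469237), which keeps the kinase AKT from the membrane, had 20.6, 18.9 and 18.6 CPM in the TNF plus Senexin B libraries and 22.2, 24.5 and 25.9 CPM in the TNF libraries. Against these, PHLDA3 had 24.0, 21.6 and 22.8 CPM in the Senexin B libraries and 27.6, 26.9 and 25.5 CPM in the control libraries. Its combined libraries were the lowest, all below the TNF libraries. PHLDA3 fell by 20.6% in both agents against TNF (-0.33 ± 0.10, edgeR adjusted p = 0.0265) and stood at -0.22 ± 0.09 in Senexin B against control (edgeR adjusted p = 0.198). By mean CPM over all libraries these were the least abundant of the called genes. The APAF1 call was lost in 8 of 14 alternatives, with adjusted p up to 0.132, among them each fit without TNF replicate 1 or 3 or any 1 of the combined libraries. The PHLDA3 call was lost in 6 of 14, with adjusted p up to 0.134, among them each fit without TNF replicate 2 or 3 or combined replicate 2 or 3. DESeq2 called neither (adjusted p = 0.118 for APAF1 and 0.112 for PHLDA3). An overlapping non-coding gene, AC096677.2, covers 19.1% of the PHLDA3 exon length on the same strand, and ANKS1B covers 9.48% of that of APAF1 on the other, with 11 counts in all.

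**Figure D3:**
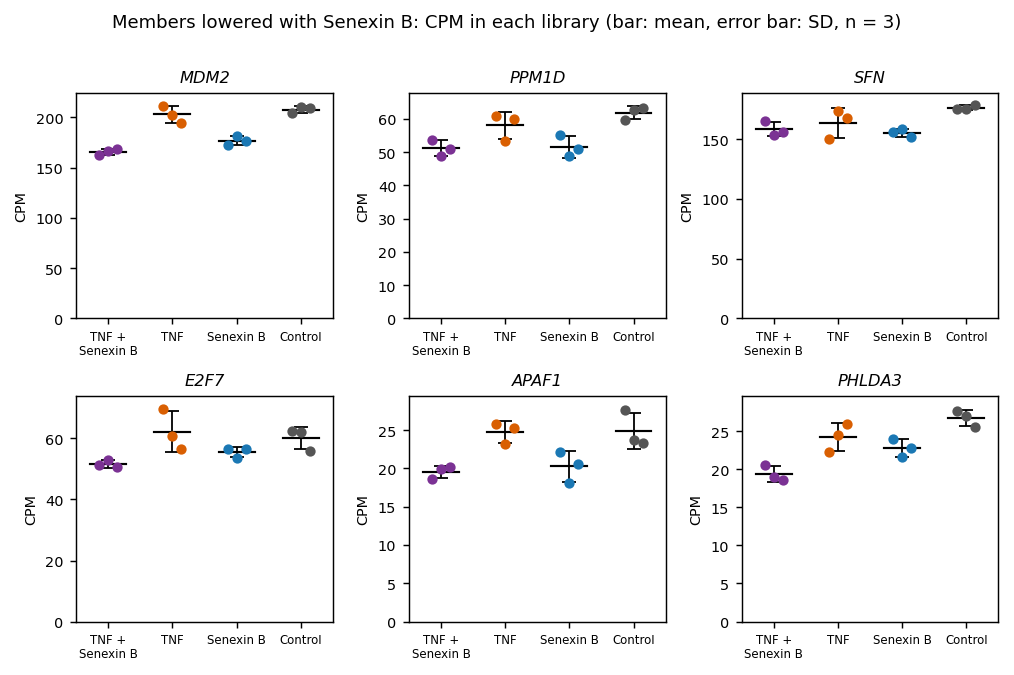
CPM in each library of the 6 p53 target genes called lower with Senexin B, with or without TNF, from a y axis that starts at 0; points are libraries, bars are means and error bars the SD of 3 replicates. MDM2 is at 166 ± 2.66 CPM with both agents and 177 ± 4.47 CPM with Senexin B, below 203 ± 8.55 CPM with TNF and 208 ± 3.23 CPM in controls.

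Whether TNF acted differently with the inhibitor present was tested by the interaction, the difference between the TNF effects with and without Senexin B. No target gene was called by edgeR, where 0.0459% of all genes were (0.0229% higher and as many lower, and 0.0587% of those at least as abundant as the least abundant target gene), and DESeq2 called 0. At an unadjusted p under 0.05 there was 1 of the 32 (3.12%), EPHA2, against 796 of the 13084 genes (6.08%). For EPHA2 the interaction was 0.14 on the log2 scale (95% interval 0.02 to 0.26, unadjusted p = 0.0277, edgeR adjusted p = 0.765). The interval for PLK2 was -0.07 to 0.18, for BTG2 -0.19 to 0.26, for PLK3 -0.20 to 0.25, for NINJ1 -0.31 to 0.16, for DRAM1 -0.36 to 0.13 and for GADD45A -0.42 to 0.03. Differences between the TNF effects anywhere within those bounds are compatible with the data, so equal effects are not shown. The EPHA2 interval lay above 0 without a call, so the bounds are not limits of detection. For MDM2 the same interaction was -0.06 (95% interval -0.18 to 0.07) and for SFN 0.13 (-0.01 to 0.27). The largest in size was that of SESN1, at -0.31 (-0.63 to 0.01, edgeR adjusted p = 0.805).

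Each agent's effect was measured in 2 pairs of groups that share no library. For TNF, 23 of the 32 target genes had the same sign in both pairs (71.9%, against 64.9% of all genes), with Pearson's r = 0.93 and Spearman's rho = 0.74 across the target genes. For Senexin B, 28 of the 32 had the same sign (87.5%, against 64.1% of all genes), 17 lower in both and 11 higher in both, with r = 0.76 and rho = 0.72. Over all genes r was 0.67 and rho 0.39 for TNF, and r was 0.26 and rho 0.33 for Senexin B. All genes include some less abundant than every tested target gene, and the agreement at matched abundance was not computed. Genes are not independent replicates, and all points of an axis come from the same 6 libraries, so these are descriptions with no test. MDM2 and PLK2 were the 2 target genes called in both Senexin B comparisons.

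**Figure D4:**
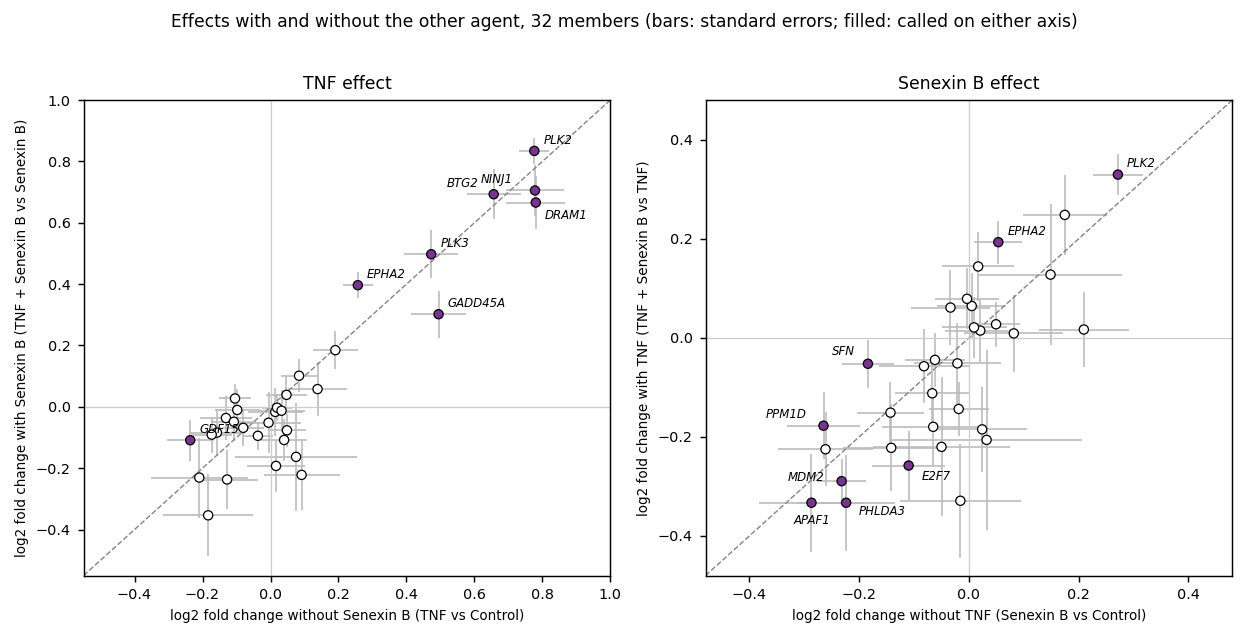
Log2 fold changes of the 32 tested target genes with the other agent present (y axis) and absent (x axis), for TNF on the left and Senexin B on the right; bars are standard errors, filled points were called on either axis and the dashed line marks equal effects. The 7 genes raised by TNF lie near the dashed line up to 0.83, whereas the Senexin B effects run from -0.33 to 0.33.

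The other 18 tested genes were called in no comparison of the main edgeR fit. By edgeR, at an unadjusted p under 0.05, 2 of them passed in TNF against control, 2 in Senexin B against control, 6 in both agents against TNF and 3 in both agents against Senexin B. Of all genes tested, called genes included, 22.7%, 14.2%, 18.9% and 14.9% passed in those 4 comparisons. The 18 were set apart for having no call, which lowers their counts, so those counts are not comparable with the shares over all genes. Of all 32 tested target genes, 34.4%, 31.25%, 50% and 37.5% passed. DESeq2 called 0 of the 18 in each. Their group means are given with the SD of 3 libraries. The 4 genes of DNA repair and nucleotide supply were among them. XPC, which finds lesions for nucleotide excision repair, averaged 44.8 ± 2.54 CPM with both agents, 37.2 ± 6.11 CPM with TNF, 47.5 ± 1.88 CPM with Senexin B and 42.1 ± 0.789 CPM in controls, and its log2 fold change of 0.25 ± 0.08 in both agents against TNF was just outside the threshold (edgeR adjusted p = 0.0557). XPC was called higher there with no filter (adjusted p = 0.0407), with a replicate block (adjusted p = 0.0271, or 0.0420 with GC-corrected offsets as well), without TNF replicate 2 (0.33, adjusted p = 0.0186) and without TNF replicate 3 (0.30, adjusted p = 0.0463). The antisense AC093495.1 covers 23.8% of its exon length, and LSM3, with 7993 counts, 6.63%, so its counts are uncertain without strand. DDB2, which recognises ultraviolet damage, averaged 41.4 ± 2.56 CPM with both agents, 39.6 ± 0.316 CPM with TNF, 42.4 ± 3.19 CPM with Senexin B and 43.4 ± 0.897 CPM in controls. POLH, the polymerase that copies past such damage, averaged 28.2 ± 1.82 CPM with both agents, 32.1 ± 1.97 CPM with TNF, 32.3 ± 2.07 CPM with Senexin B and 31.9 ± 1.90 CPM in controls. RRM2B, the ribonucleotide reductase subunit of non-dividing cells, averaged 93.3 ± 7.27 CPM with both agents, 104 ± 11.3 CPM with TNF, 90.8 ± 3.18 CPM with Senexin B and 100.3 ± 4.51 CPM in controls. RRM2B was called lower in both agents against TNF without TNF replicate 3 (-0.22, adjusted p = 0.0356).

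None of the 6 genes of metabolism and redox control was called in the 4 comparisons of the main edgeR fit. SESN1, a sestrin that restrains mTORC1, averaged 12.9 ± 0.220 CPM with both agents, 16.2 ± 0.820 CPM with TNF, 15.0 ± 1.32 CPM with Senexin B and 15.3 ± 1.16 CPM in controls, lowest with both agents, where it was at -0.33 ± 0.12 against TNF (edgeR adjusted p = 0.0818). TIGAR, a phosphatase that slows glycolysis, averaged 33.04 ± 1.31 CPM with both agents, 34.3 ± 0.921 CPM with TNF, 33.4 ± 1.97 CPM with Senexin B and 34.0 ± 2.31 CPM in controls, and 42.6% of its exon length overlaps AC008012.1 on the same strand. TP53I3, a quinone oxidoreductase, averaged 5.57 ± 1.402 CPM with both agents, 6.52 ± 0.825 CPM with TNF, 6.23 ± 0.454 CPM with Senexin B and 6.11 ± 0.460 CPM in controls, among the lowest of the list. FDXR, the reductase of mitochondrial electron transfer, averaged 56.8 ± 2.32 CPM with both agents, 54.1 ± 3.09 CPM with TNF, 58.8 ± 2.94 CPM with Senexin B and 58.6 ± 0.660 CPM in controls. ISCU, the scaffold of iron-sulphur cluster assembly, averaged 68.0 ± 1.74 CPM with both agents, 66.9 ± 3.05 CPM with TNF, 71.3 ± 4.38 CPM with Senexin B and 70.8 ± 2.84 CPM in controls. CMBL, a hydrolase of the cytosol, averaged 69.8 ± 2.42 CPM with both agents, 66.2 ± 1.94 CPM with TNF, 74.4 ± 1.49 CPM with Senexin B and 74.3 ± 5.50 CPM in controls, with -0.17 ± 0.06 in TNF against control (edgeR adjusted p = 0.0589). CMBL was called lower there in 6 of 14 alternatives: with a replicate block (adjusted p = 0.0499), with GC-corrected offsets (-0.19, adjusted p = 0.0152; 0.0105 with the block), without control replicate 1 (-0.23, adjusted p = 0.0136), without TNF replicate 1 (-0.19, adjusted p = 0.04997) and without both (-0.25, adjusted p = 0.00671). The half-site windows of SESN1, ISCU and FDXR shown above thus belong to genes without a call.

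Of the cell death group, AEN, a nuclease of apoptosis, averaged 109 ± 6.08 CPM with both agents, 112 ± 6.06 CPM with TNF, 101 ± 2.71 CPM with Senexin B and 106 ± 4.75 CPM in controls. PERP averaged 204 ± 11.0 CPM with both agents, 200.3 ± 2.82 CPM with TNF, 204 ± 5.65 CPM with Senexin B and 197 ± 5.30 CPM in controls. TRIAP1 averaged 56.8 ± 5.62 CPM with both agents, 62.0 ± 6.07 CPM with TNF, 57.4 ± 2.98 CPM with Senexin B and 60.1 ± 1.85 CPM in controls. TP53INP1, a partner of p53 in stress and autophagy, averaged 8.83 ± 0.349 CPM with both agents, 10.5 ± 1.76 CPM with TNF, 11.3 ± 0.529 CPM with Senexin B and 11.7 ± 0.582 CPM in controls, at -0.35 ± 0.13 in both agents against Senexin B, the lowest log2 fold change of the uncalled genes (edgeR adjusted p = 0.125). ZMAT3, an RNA-binding protein of splicing and mRNA stability, averaged 30.2 ± 3.50 CPM with both agents, 35.2 ± 1.54 CPM with TNF, 29.1 ± 2.31 CPM with Senexin B and 32.1 ± 2.93 CPM in controls. CCNG2, a cyclin linked to cell cycle exit, averaged 10.1 ± 1.55 CPM with both agents, 9.35 ± 1.36 CPM with TNF, 11.8 ± 0.214 CPM with Senexin B and 10.6 ± 0.598 CPM in controls. Standard errors of the uncalled log2 fold changes ran up to 0.18, and half-widths of their 95% intervals up to about 0.36. A call after adjustment is stricter than a 95% interval, so changes of that size or larger could go undetected in the least abundant genes.

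GC content is given beside the TNF results, since TNF replicate 1 stood apart in it. Over all tested genes the log2 fold change and transcript GC content had a Spearman's rho of -0.41 in TNF against control, 0.38 in both agents against TNF, -0.18 in both agents against Senexin B and 0.10 in Senexin B against control. The 7 target genes raised by TNF had a median GC content of 51.5% (46.9% to 63.2%), against 44.2% in the other 25 tested target genes and 43.6% in all 738 genes raised by TNF with a known GC content. With GC-corrected offsets all 7 were still called higher in both TNF comparisons, and so were MDM2 lower and PLK2 higher in both Senexin B comparisons. The same offsets added calls of CMBL lower in TNF against control, BTG2 lower in both Senexin B comparisons, SFN lower in both agents against TNF and MDM4 higher in both agents against Senexin B, and ended those of GDF15 and APAF1.

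Other genes of the pathway were read in the same fit. Of 30 further p53 target genes, 27 were tested: 7 rose in TNF against control and 9 rose and 1 fell in both agents against Senexin B, with medians of 0.13 and 0.07. Those calls were 25.9% and 37.0% of the 27, where 10.0% and 5.95% of all genes were called. TNFRSF10B, the death receptor DR5, was at 0.80 ± 0.04 and 0.78 ± 0.04 (edgeR adjusted p = 1.38e-23 and 1.72e-23), and BBC3, the BCL2 family protein PUMA, at 1.06 ± 0.12 in TNF against control (edgeR adjusted p = 7.05e-11). In Senexin B against control 4 rose and 1 fell, and in both agents against TNF 3 rose and 3 fell, with medians of -0.03 and -0.02. Those calls were 18.5% and 22.2% of the 27, where 3.04% and 5.45% of all genes were called. The gene that fell in Senexin B against control was CDKN1A, the cell cycle inhibitor p21. It averaged 112 ± 3.71 CPM with both agents, 163 ± 4.64 CPM with TNF, 89.5 ± 0.698 CPM with Senexin B and 152 ± 2.92 CPM in controls. CDKN1A fell by 41.3% in Senexin B against control (-0.77 ± 0.05, edgeR adjusted p = 3.11e-18), beside 14.9% for MDM2, and fell by 31.6% in both agents against TNF (-0.55 ± 0.05, edgeR adjusted p = 6.11e-13).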

How the data were processed

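RNA of HCT116 cells was prepared by the TruSeq RNA method, which does not mark strand, per the labels' protocols. The authors deposited raw read counts per gene symbol. The submitters' processing notes name STAR 2.4, SAMtools 1.2, featureCounts of Subread 1.4.6 and the build GRCh38, while the annotation release, strand setting and handling of multiply mapped reads are not given in the sources used here. Counts were fitted in edgeR 4.0.16 (R 4.3.3) with TMM scaling, filterByExpr by group and robust quasi-likelihood F-tests over all 12 libraries, 1 coefficient per group, and p-values were adjusted by Benjamini-Hochberg over 13084 genes. Standard errors are Wald errors scaled by the posterior quasi-dispersion, with 95% intervals. CPM used the TMM-scaled library sizes. Alternatives were DESeq2 1.42.0, DESeq2-style size factors in edgeR, no filter, a replicate block, GC-corrected offsets, fits of the compared groups alone and fits without single libraries. The procedure was also tested on simulated data. The target genes and lists were chosen with earlier results of these data known. Values per library are given for every target gene called at least once, group means for the others, and examples for the other lists. Exon lengths, GC content and gene positions came from GENCODE 29, in which all 33 target genes were found.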

Additional observations from a re-analysis of the deposited data

How the results depend on the processing

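Of the 25 calls of p53 target genes, 18 were kept in all 14 alternatives of their comparison and 0 changed sign in any of them; the calls that were lost stand beside their values above. Alternatives also brought about 30 calls in 9 target genes, of MDM4, CMBL, XPC, BTG2, SFN and RRM2B as given above, of AEN (0.14, adjusted p = 0.0352 in TNF against control) and APAF1 (-0.28, adjusted p = 0.0453 in Senexin B against control) with GC-corrected offsets and the replicate block, and of PPM1D in both agents against TNF without TNF replicate 2 (-0.24, adjusted p = 0.0438). DESeq2 called fewer of all genes: 799 against 1309 in TNF against control, 259 against 398 in Senexin B against control, 437 against 713 in both agents against TNF and 485 against 779 in both agents against Senexin B. GC-corrected offsets gave 602 genes in Senexin B against control, or 721 with the replicate block as well, and testing without a filter gave 10 genes in the interaction against 6. Leaving out single libraries gave 876 to 1348, 236 to 333, 451 to 815 and 583 to 605 genes in those 4 comparisons and 2 to 9 in the interaction, and 7 to 9, 2 to 4, 3 to 7 and 6 to 8 target genes, with 0 in the interaction. Without both control replicate 1 and TNF replicate 1, 416 genes and 5 target genes were called in Senexin B against control. The causes were not tested.

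Whether the replicate numbers pair the libraries is not settled. Of 18 same-numbered pairs 1 correlated over 0.1, and their correlations ran from -0.012 to 0.103. Even so, 9 of 12 libraries correlated best with a library of their own number. With the number as a block, 1470, 479, 871 and 827 genes and 10, 4, 7 and 7 target genes were called in the 4 comparisons, with 6 genes and 0 target genes in the interaction.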

Other observations

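Among the further p53 target genes, those for the secreted proteins THBS1 and LIF rose with TNF. THBS1, the matrix protein thrombospondin 1, was at 0.78 ± 0.07 on the log2 scale in TNF against control (edgeR adjusted p = 1.75e-14) and 1.02 ± 0.06 in both agents against Senexin B (edgeR adjusted p = 5.69e-22). It rose with the inhibitor too, by 0.43 ± 0.07 in Senexin B against control (edgeR adjusted p = 7.65e-06) and 0.68 ± 0.06 under TNF (edgeR adjusted p = 1.35e-13). The cytokine LIF was at 0.77 ± 0.06 (edgeR adjusted p = 1.70e-16) in TNF against control. SESN2, a stress-induced sestrin, averaged 43.6 ± 3.22 CPM with both agents, 38.3 ± 4.27 CPM with TNF, 42.0 ± 2.397 CPM with Senexin B and 28.6 ± 1.93 CPM in controls, and rose by 0.55 ± 0.08 in Senexin B against control (edgeR adjusted p = 4.23e-06). Its relative SESN1 was at -0.02 ± 0.11 there (edgeR adjusted p = 0.967), and the difference between the 2 genes was not tested.

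Cell cycle genes that p53 is known to repress through p21 and the DREAM complex were read as well, and all 16 were tested. In TNF against control 1 rose, ECT2, a regulator of cytokinesis, at 0.21 ± 0.05 (edgeR adjusted p = 0.000701), and 2 fell, the mitotic genes PLK1 at -0.15 ± 0.05 and BIRC5 at -0.13 ± 0.04 (edgeR adjusted p = 0.0264 and 0.0269). In Senexin B against control edgeR called 0, with 2 lower at an unadjusted p under 0.05, and DESeq2 called 0. In both agents against TNF 3 fell, CCNB1 at -0.15 ± 0.04, CDK1 at -0.16 ± 0.05 and ECT2 at -0.14 ± 0.05 (edgeR adjusted p = 0.0139, 0.0281 and 0.0486). With GC-corrected offsets PLK1 was at -0.08 (edgeR adjusted p = 0.237), CDK1 at -0.06 (adjusted p = 0.429) and ECT2 under TNF at -0.06 (adjusted p = 0.422), none of them called. Without TNF replicate 1 the adjusted p was 0.157 for PLK1, 0.158 for CDK1, 0.299 for ECT2 and 0.0644 for CCNB1, and without control replicate 2 it was 0.121 for BIRC5. In both agents against Senexin B 1 fell, BIRC5 at -0.13 ± 0.04 (edgeR adjusted p = 0.0470), which DESeq2 did not call (adjusted p = 0.0969), and 4 were lower at an unadjusted p under 0.05. Of the 16, 18.75% were called in TNF against control and in both agents against TNF, beside 10.0% and 5.45% of all genes. In both agents against Senexin B 6.25% were called, beside 5.95% of all genes, and in Senexin B against control 0%, beside 3.04%. Unadjusted p was under 0.05 for 12.5% of the 16 in Senexin B against control and 31.25% in both agents against Senexin B, beside 14.2% and 14.9% of all genes. The medians of the 16 were 0.01 in TNF against control, -0.01 in Senexin B against control, -0.04 in both agents against TNF and -0.02 in both agents against Senexin B.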
